A study of Mus musculus with 20 samples.

Results

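The genes described here are 9 mouse genes of inflammasome signalling, caspase activation and necroptosis: Nlrp3, Casp1, Casp4, Gsdmd, Il18, Casp8, Zbp1, Ripk3 and Mlkl. They were taken by name from the 18193 genes that the array measured with a probe set of a single gene symbol, and the brightest probe set stood for each gene. All 9 had a probe set, and 6 of the 9 passed the filter on dim signals and were tested among 8774 genes. The measurement was the hybridization signal of liver RNA from single mice on an Affymetrix array, given in linear intensity units after normalization by the authors. There were 4 groups of 5 male mice, aged 50 to 60 days and of mixed BL6/SV129 background. MCAD-/- mice given LPS, wild type mice given LPS, MCAD-/- mice given vehicle and wild type mice given vehicle were all fasted for 12 h after the injection. The LPS dose was 100 µg per 20 g of body weight. MCAD-/- mice lack medium-chain acyl-CoA dehydrogenase, a mitochondrial enzyme of fatty acid oxidation encoded by Acadm. LPS is a cell wall component of Gram-negative bacteria that starts an acute inflammatory response. The mixed background means that segments of either parental strain may be carried in any mouse, and these were not typed in the data used here. In every genotype difference below, the Acadm genotype and such segments cannot be told apart.

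Inflammasomes are cytosolic complexes in which a sensor such as NLRP3 recruits and activates caspase-1. Caspase-1 matures interleukin-18 and interleukin-1 beta and cuts gasdermin D, whose freed end forms pores in the plasma membrane and kills the cell by pyroptosis. Caspase-11, the product of mouse Casp4, binds cytosolic LPS directly and also cuts gasdermin D, and mouse strains of the 129 family carry a Casp4 allele that yields no functional caspase-11. Caspase-8 starts apoptosis downstream of death receptors and restrains necroptosis, the lytic death that follows when ZBP1 or other adaptors engage RIPK3, which phosphorylates the membrane-rupturing protein MLKL. In liver, Kupffer cells and infiltrating leukocytes carry much of the inflammasome machinery, and hepatocytes are known for very low RIPK3. The array measured transcripts only, and cleavage, phosphorylation and secretion, by which these proteins act, were not measured.

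Acadm checked the genotype labels in all 20 mice. Its signal was 14.3 to 218 units in MCAD-/- LPS livers and 1449.9 to 2375 units in wild type LPS livers, and 9.03 to 80.2 units in MCAD-/- vehicle livers and 3106 to 4022 units in wild type vehicle livers. All 10 hepatocyte markers on the array passed the filter. Between 30.3 and 32.4 percent of probe sets exceeded 16 units on each array. The log2 ratio of the 3' to the 5' actin control probe sets, which rises as RNA is degraded, was 1.40 to 1.81 in MCAD-/- LPS, 1.35 to 3.69 in wild type LPS, 1.69 to 2.34 in MCAD-/- vehicle and 1.69 to 3.18 in wild type vehicle livers. Mouse 4 of the wild type LPS group and mouse 3 of the wild type vehicle group had the highest ratios, and leaving out both moved no count of the 9 genes. The labels used here name no batch or scan date.

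LPS raised Mlkl, Zbp1, Gsdmd and Casp4 and lowered Il18 in both genotypes, and the LPS response of 1 of them, Casp4, differed by genotype. All Casp4 values in wild type livers were under 16 units, where a value is treated as a bound rather than a level. A gene was called when its adjusted p from limma, after Benjamini-Hochberg adjustment over the 8774 genes tested, was under 0.05. In wild type livers LPS raised 4 of the 6 and lowered 1, while 64 percent of all tested genes were called in either direction, 40 percent higher and 24 percent lower. In MCAD-/- livers LPS raised 4 and lowered 1, and 65.7 percent of all tested genes were called, 38.1 percent higher and 27.6 percent lower. With so large a share of the array called, a count of 5 of 6 for LPS is no result about these genes, and their values are given instead. Between genotypes, 1 gene was higher and 1 lower in MCAD-/- vehicle livers, against 16.2 percent called of all genes, 9.81 percent higher and 6.39 percent lower. With LPS, 1 was again higher and 1 lower in MCAD-/- livers, against 20.6 percent called of all genes, 8.75 percent higher and 11.8 percent lower. The LPS response differed by genotype in 1 of the 6, being larger in MCAD-/- livers, against 4.11 percent of all genes, 1.36 percent higher and 2.76 percent lower. The 5 mice of one group did not overlap those of the other for 5 of the 6 genes with LPS against vehicle in MCAD-/- livers (51.4 percent of all tested genes), 5 in wild type livers (46.1 percent), 2 by genotype with vehicle (13.8 percent) and 1 by genotype with LPS (12.8 percent). Mlkl, Zbp1 and Casp4 exceeded 16 units only in mice given LPS, and Casp4 only in the MCAD-/- mice among them. They passed the filter through the very group in which they were high, so their being called there is no separate evidence. For Casp4 that covers its calls for LPS in MCAD-/- livers, by genotype with LPS and for the difference of responses. The 4 comparisons share groups of mice, and the values of each are given side by side.

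**Figure D1:**
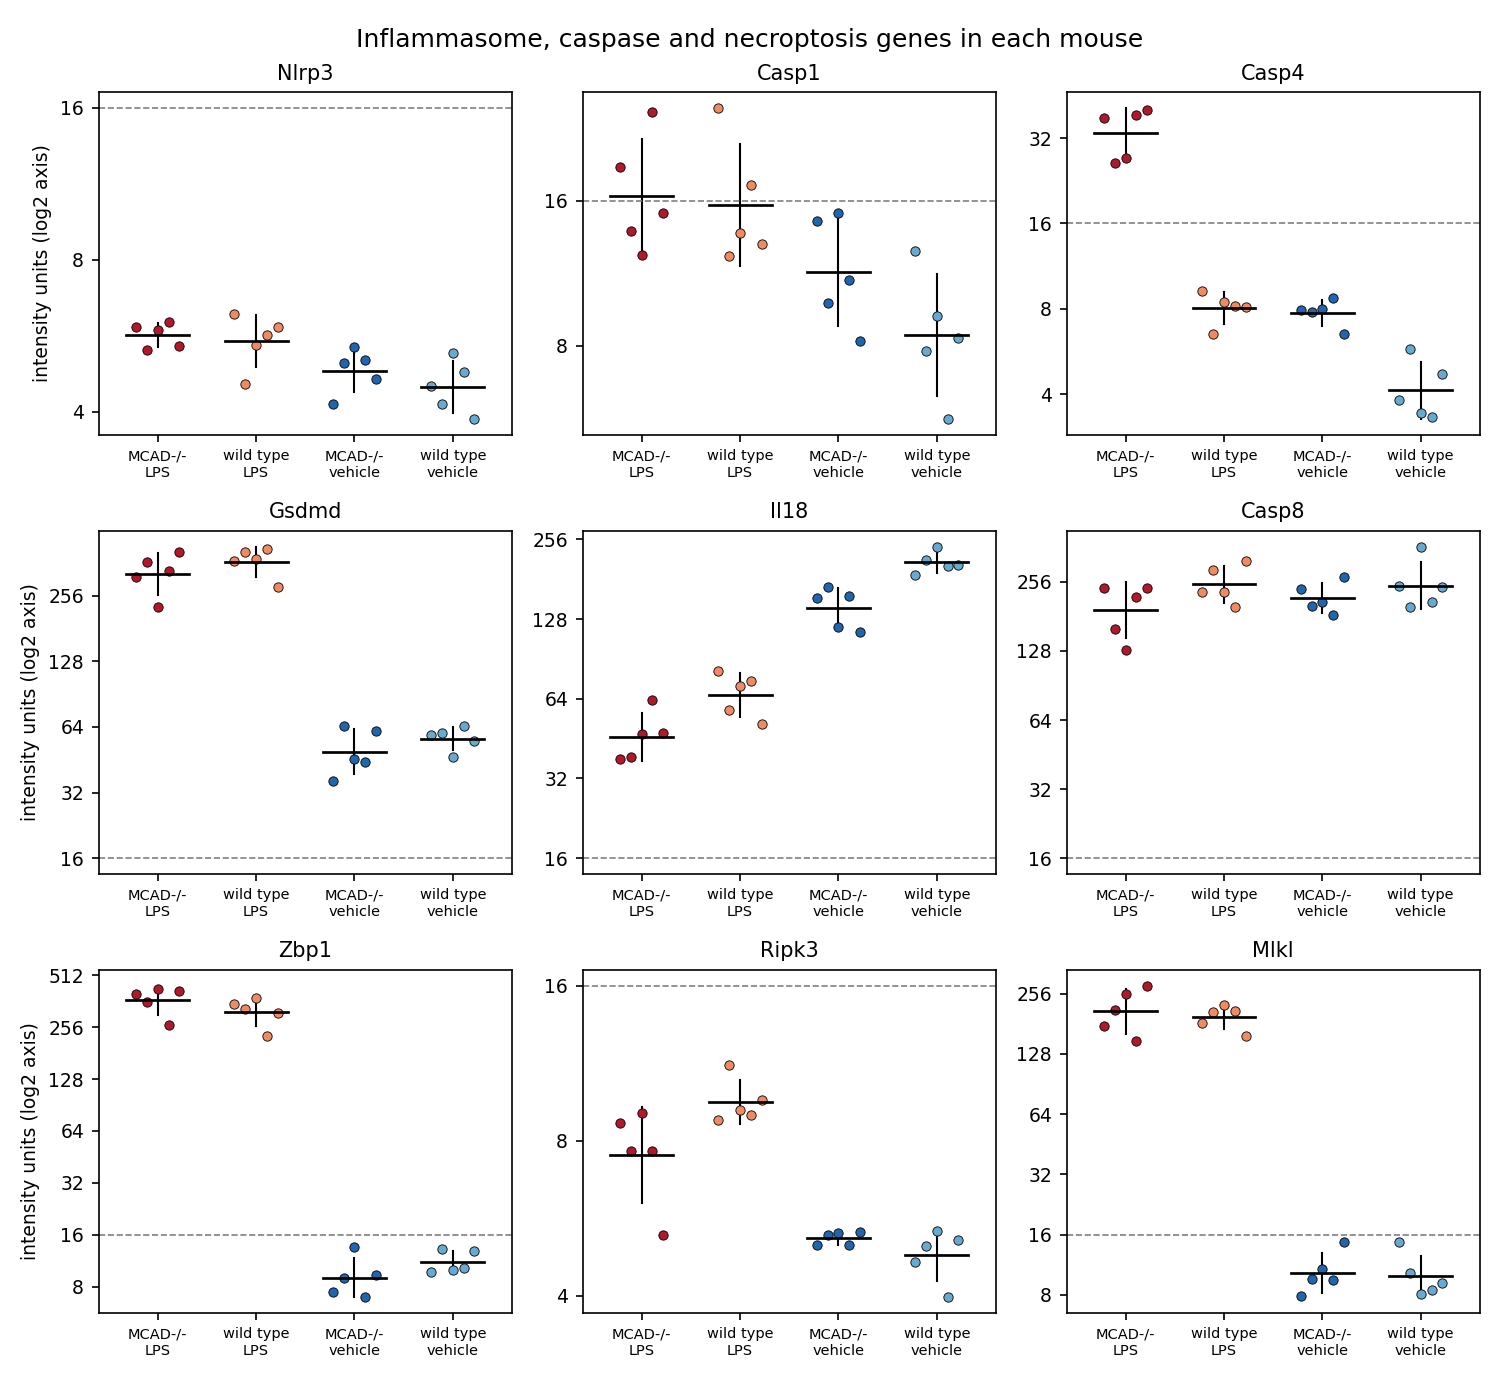
Signal of each of the 9 genes in every mouse, in intensity units on a log2 axis, by group. Points are mice, horizontal lines are means of the 5 log2 values, vertical bars are 1 SD of the log2 values to either side, and the dashed line marks 16 units. Mlkl, Zbp1 and Gsdmd lie far higher in both LPS groups, Il18 lies lower with LPS, Casp8 overlaps across all groups, and Casp4 stands above 16 units only in MCAD-/- LPS livers.

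The inflammasome sensor Nlrp3, which assembles the complex that activates caspase-1, was dim in every mouse. Its signal was 5.88, 5.29, 5.81, 6.02 and 5.40 units in MCAD-/- LPS livers and 6.23, 4.54, 5.42, 5.68 and 5.88 units in wild type LPS livers. It was 4.14, 4.99, 5.36, 5.06 and 4.65 units in MCAD-/- vehicle livers and 4.50, 4.14, 5.23, 4.80 and 3.86 units in wild type vehicle livers. No mouse reached 16 units, the groups overlapped in every comparison, and no fold change is given. In a limma fit of all 18193 genes without the filter, in which 39.2 percent were called for LPS in wild type livers, Nlrp3 was 0.30 higher with LPS on the log2 scale (95% interval 0.09 to 0.51, adjusted p = 0.0220). The corresponding difference in MCAD-/- livers was 0.23 (95% interval 0.024 to 0.44, adjusted p = 0.0705), where 40.2 percent of genes were called. The genotype differences were 0.11 with vehicle and 0.039 with LPS (adjusted p = 0.637 and 0.884 without the filter, where 8.6 and 10.2 percent of all genes were called).

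Casp1, the protease activated by inflammasomes, lay close to the 16 unit floor and was not tested, since only 4 of the 20 arrays exceeded it. Its signal was 18.8, 13.9, 12.3, 24.5 and 15.1 units in MCAD-/- LPS livers and 25.01, 12.3, 13.7, 17.2 and 13.1 units in wild type LPS livers. It was 14.5, 9.82, 15.1, 10.96 and 8.20 units in MCAD-/- vehicle livers and 12.6, 7.80, 9.23, 5.64 and 8.31 units in wild type vehicle livers. In each LPS group 2 of 5 mice exceeded 16 units and in the vehicle groups none did, and the groups overlapped in every comparison. The order of the group means was MCAD-/- LPS, wild type LPS, MCAD-/- vehicle and wild type vehicle, at 16.4, 15.7, 11.4 and 8.43 units. Without the filter, limma gave a log2 difference of 0.52 for LPS against vehicle in MCAD-/- livers (95% interval 0.041 to 1.01, adjusted p = 0.0784) and of 0.90 in wild type livers (95% interval 0.41 to 1.38, adjusted p = 0.00373). An exact two-sided permutation test over the 252 regroupings of 5 against 5 mice gave p = 0.0714 and p = 0.0159 for the same differences. The genotype differences of Casp1 were 0.44 with vehicle and 0.066 with LPS, with adjusted p = 0.307 and 0.920 without the filter.

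Casp4, which encodes the cytosolic LPS receptor caspase-11, was the gene in which genotype and LPS combined. It was 37.6, 26.1, 27.2, 38.5 and 40.2 units in MCAD-/- LPS livers, against 9.22, 6.50, 8.45, 8.19 and 8.09 units in wild type LPS livers. It was 7.91, 7.79, 8.004, 8.72 and 6.53 units in MCAD-/- vehicle livers, against 3.82, 5.79, 3.44, 3.32 and 4.71 units in wild type vehicle livers. Every MCAD-/- LPS mouse exceeded 16 units and no mouse of the other 3 groups did. The log2 group means were 5.06 ± 0.30 in MCAD-/- LPS, 3.01 ± 0.19 in wild type LPS, 2.96 ± 0.15 in MCAD-/- vehicle and 2.04 ± 0.34 in wild type vehicle livers (SD, n = 5 each). Wild type LPS and MCAD-/- vehicle livers, adjacent in this order, overlapped.

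With LPS, Casp4 was at least 2.08-fold higher in MCAD-/- than in wild type livers, where the bound sets the dim group at 16 units, and the fitted log2 difference was 2.05 ± 0.16 (SE; limma adjusted p = 7.46e-09). LPS raised it in MCAD-/- livers by at least 2.08-fold (log2 difference 2.10 ± 0.16 SE, adjusted p = 8.42e-10). In wild type livers LPS raised it by 0.96 ± 0.16 on the log2 scale (SE; adjusted p = 2.61e-05), and with vehicle MCAD-/- livers were 0.91 ± 0.16 above wild type (SE; adjusted p = 0.000404). All values behind these last 2 differences were under 16 units, so no fold is given, and after 16 was added to each value the vehicle difference was 0.24 with adjusted p = 0.0624. The groups did not overlap in any of the 4 comparisons. The LPS response of Casp4 was larger in MCAD-/- than in wild type livers by 1.14 ± 0.22 on the log2 scale (SE, 95% interval 0.67 to 1.61, adjusted p = 0.00586). Over 30 alternative settings this difference of responses was 0.81 to 1.23, with adjusted p between 0.000338 and 0.0146. Casp4 passed the filter only through MCAD-/- LPS livers, so these calls are no separate evidence, and a stricter filter of 64 units drops it. The mice are of mixed background and their Casp4 alleles were not typed in the data used here, so in the genotype differences of Casp4 with vehicle and with LPS, and in the difference of responses, the Acadm genotype and strain-derived segments cannot be told apart.

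Kupffer cell and macrophage markers moved with some of these differences: of the 9 on the array that passed the filter, 6 were higher in MCAD-/- than in wild type vehicle livers, and none was called by genotype with LPS. In the same vehicle comparison 8 of 9 sinusoidal endothelial markers and 4 of 8 stellate cell markers were higher in MCAD-/- livers. Of all tested genes 9.81 percent were called higher there. The Kupffer markers' summed signal was 614 to 1234 units in MCAD-/- LPS, 529 to 1104 in wild type LPS, 1716 to 2453 in MCAD-/- vehicle and 952 to 1744 in wild type vehicle livers. Their part in the Casp4 difference with vehicle was not tested. With LPS, where the genotype difference of Casp4 was largest, the Kupffer marker sums of MCAD-/- and wild type livers overlapped, and 1 of 4 neutrophil markers was higher in MCAD-/- livers. In that comparison 1 of 10 hepatocyte markers was higher, and 1 of 9 sinusoidal endothelial and 2 of 8 stellate cell markers were lower. Of all tested genes 8.75 percent were called higher and 11.8 percent lower by genotype with LPS. In bulk liver RNA fewer cells of a type and less RNA per cell cannot be told apart. Casp4 lies next to Casp1 on chromosome 9. Of the 8 protein-coding genes listed before it and the 10 after it, 6 were tested (Alkbh8, Cwf19l2, Aasdhppt, Kbtbd3, Msantd4 and Dcun1d5), a set looked up after the Casp4 values were seen. None of the 6 was called by genotype, with limma's adjusted p between 0.0971 and 0.762 with vehicle and between 0.0623 and 0.943 with LPS, and these values do not show which strain's segment a mouse carries.

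The region before the first annotated Casp4 start is shown because Casp4 was the gene whose LPS response differed by genotype. The RefSeq sequence of the 250 bases before that start (build GRCm38.p6, chr9:5308599-5308848, plus strand, 5′ to 3′) is given with matches to the NF-kappaB motif in capitals. NF-kappaB is the transcription factor activated by LPS receptors.
Casp4: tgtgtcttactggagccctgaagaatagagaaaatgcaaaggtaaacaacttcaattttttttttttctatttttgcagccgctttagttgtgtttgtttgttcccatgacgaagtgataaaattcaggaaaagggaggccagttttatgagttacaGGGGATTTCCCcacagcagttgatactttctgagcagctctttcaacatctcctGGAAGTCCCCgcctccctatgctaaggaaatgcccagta
The capitals mark 2 stretches, which end 83 and 30 bases before the start. The first holds overlapping matches on both strands and the second 1 match on the minus strand. Promoter windows from 250 bases before to 50 bases after a start were listed for 7 of the 9 genes, 9 windows in all, and were searched on both strands. The NF-kappaB motif was found in both Casp4 windows, which overlap, and in 1 Nlrp3 window, against 8.46 percent of all 32851 windows. The interferon-response core GAAANNGAAA and the STAT motif TTCNNNGAA were in none of the 9, against 3.44 and 8.3 percent of all windows. A match describes letters and no factor's binding was measured here.

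Gsdmd, whose product forms the pyroptotic pore, rose with LPS by nearly the same factor in both genotypes. Its signal was 312, 363, 226, 332 and 404 units in MCAD-/- LPS livers, against 36.2, 64.3, 45.8, 44.2 and 61.4 units in MCAD-/- vehicle livers. It was 369, 405, 376, 419 and 280.5 units in wild type LPS livers, against 58.6, 59.9, 46.6, 64.2 and 55.1 units in wild type vehicle livers. Every LPS mouse lay above every vehicle mouse, while the genotypes overlapped under either injection. The fold was 6.53 in MCAD-/- livers (log2 difference 2.71 ± 0.17 SE, adjusted p = 5.70e-11) and 6.47 in wild type livers (2.69 ± 0.17, adjusted p = 6.63e-11). The difference of the responses was 0.012 on the log2 scale, with a 95% interval of -0.49 to 0.51. The genotype differences were -0.20 with vehicle (95% interval -0.55 to 0.15) and -0.19 with LPS (95% interval -0.54 to 0.16), neither past the threshold (adjusted p = 0.472 and 0.470).

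Il18, the cytokine matured by caspase-1, was the 1 gene of the 9 that fell with LPS, and it was lower in MCAD-/- livers under both injections. Its signal was 37.9, 38.6, 46.999, 63.3 and 47.4 units in MCAD-/- LPS livers and 81.4, 57.99, 71.4, 74.7 and 51.2 units in wild type LPS livers. It was 154, 169, 119, 157 and 115 units in MCAD-/- vehicle livers and 188, 215, 240.4, 203 and 205 units in wild type vehicle livers. All LPS mice lay below all vehicle mice. The vehicle groups did not overlap by genotype, and the LPS groups overlapped, since mouse 4 of the MCAD-/- LPS group was above mice 2 and 5 of the wild type LPS group. The group means rose in the order MCAD-/- LPS, wild type LPS, MCAD-/- vehicle and wild type vehicle, at 46.02, 66.4, 141 and 209 units.

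LPS lowered Il18 3.07-fold in MCAD-/- livers (log2 difference -1.62 ± 0.15 SE, adjusted p = 2.50e-08) and 3.16-fold in wild type livers (-1.66 ± 0.15, adjusted p = 1.94e-08). With vehicle, Il18 was 1.48-fold lower in MCAD-/- than in wild type livers (-0.57 ± 0.15, adjusted p = 0.0153). With LPS it was 1.44-fold lower in MCAD-/- livers (-0.53 ± 0.15, adjusted p = 0.0195). This last call was lost without mouse 1 of the wild type LPS group (-0.45, adjusted p = 0.0571), without mouse 1 or mouse 2 of the MCAD-/- LPS group (adjusted p = 0.0555 and 0.0525) and when only the compared groups were fitted (adjusted p = 0.0604). The responses to LPS differed by 0.04 on the log2 scale (95% interval -0.42 to 0.50). Several Kupffer markers fell with LPS alongside Il18: 8 of 9 in MCAD-/- livers and 6 of 9 in wild type livers, among them Clec4f, at 37.2 units in MCAD-/- LPS against 375 in MCAD-/- vehicle and 32.5 in wild type LPS against 284 in wild type vehicle livers. Marco, a scavenger receptor of the same list, rose, from vehicle means under 16 units in both genotypes. Hepatocyte markers also fell with LPS, 7 of 10 in MCAD-/- and 6 of 10 in wild type livers, with 1 higher in each. Of 9 sinusoidal endothelial markers 5 fell and 2 rose in MCAD-/- livers, and 1 fell and 5 rose in wild type livers. Of 8 stellate cell markers 4 fell in MCAD-/- livers, and 2 fell and 2 rose in wild type livers. Of all tested genes 27.6 percent were called lower with LPS in MCAD-/- and 24 percent in wild type livers. Between genotypes with vehicle the Kupffer markers went the other way from Il18, higher in MCAD-/- livers. The part of these cell types in the Il18 differences was not tested.

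Casp8, the initiator caspase of death receptors and a brake on necroptosis, was bright and was called in no comparison, under any setting. Its signal was 242, 159, 129, 221 and 242 units in MCAD-/- LPS livers and 231, 289.6, 230.2, 198 and 316 units in wild type LPS livers. It was 238, 201, 208, 184 and 269 units in MCAD-/- vehicle livers and 247, 199, 365, 209 and 242 units in wild type vehicle livers. The groups overlapped in all 4 comparisons. The log2 difference for LPS against vehicle was -0.18 in MCAD-/- livers (95% interval -0.58 to 0.22) and 0.017 in wild type livers (-0.38 to 0.42). For MCAD-/- against wild type it was -0.18 with vehicle (-0.58 to 0.22) and -0.37 with LPS (-0.77 to 0.026). The last had an adjusted p of 0.181, and differences inside these intervals could not be told from 0 with 5 mice per group.

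**Figure D2:**
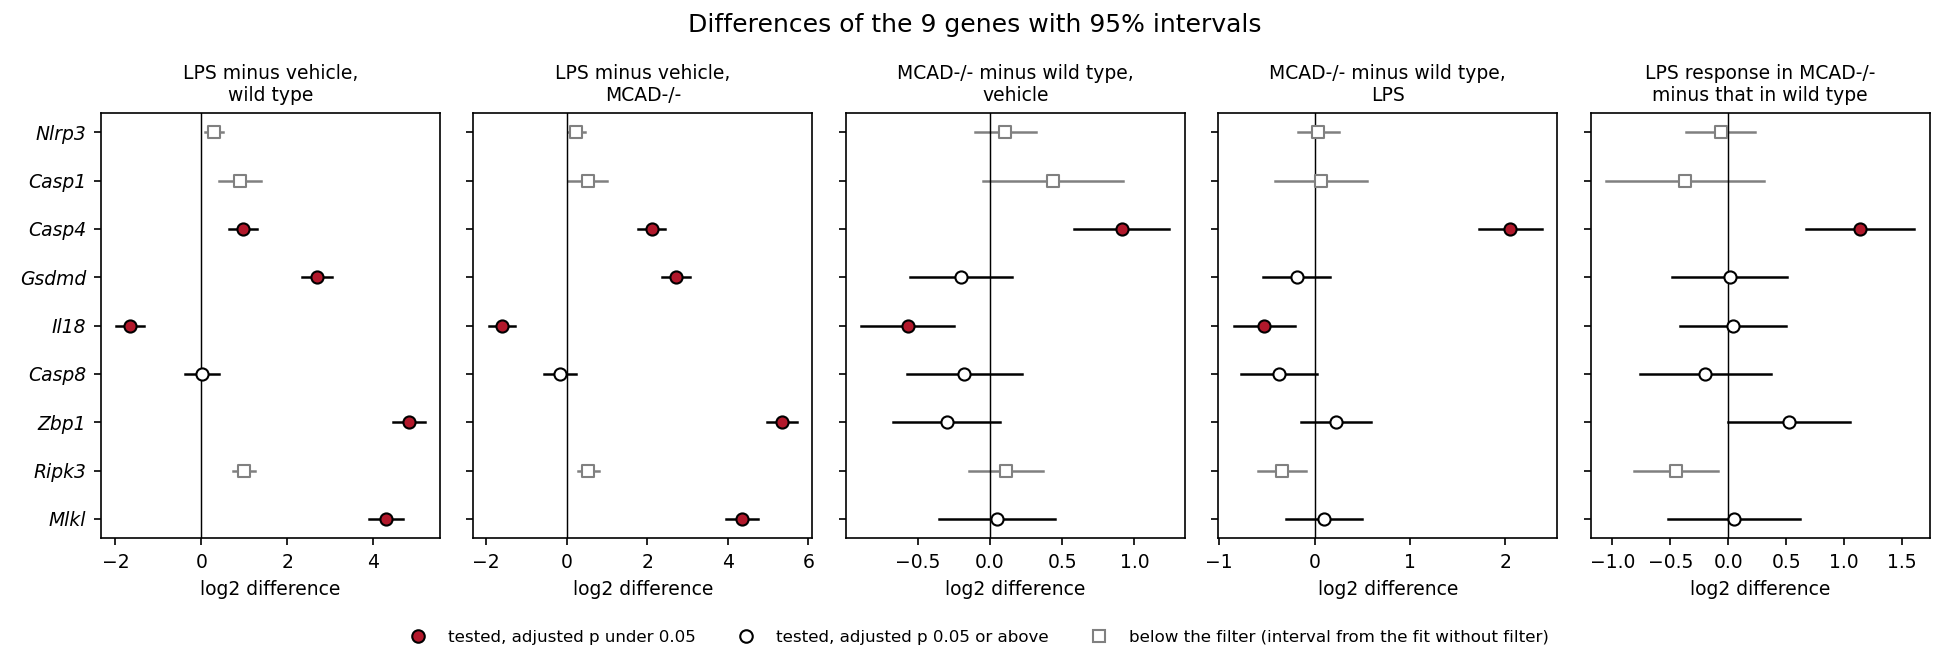
Log2 differences of the 9 genes in each comparison, with 95% intervals; positive values are higher with LPS (or in MCAD-/- livers) than with vehicle (or in wild type). Filled red circles are tested genes with an adjusted p under 0.05, open circles are tested genes that were not called, and grey squares are genes below the filter, with intervals from the fit without it. Zbp1, Mlkl and Gsdmd have long positive bars for LPS in both genotypes, Il18 is negative throughout the 4 comparisons, and in the interaction only Casp4 is filled.

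Zbp1, the sensor of Z-form nucleic acids that engages RIPK3, showed the largest LPS response of the 6 tested genes. Its brighter probe set had 398, 358, 424, 264 and 416 units in MCAD-/- LPS livers, against 7.44, 9.03, 13.6, 6.97 and 9.40 units in MCAD-/- vehicle livers. It had 350.3, 328, 377, 228 and 311 units in wild type LPS livers, against 9.75, 13.2, 10.004, 10.3 and 12.9 units in wild type vehicle livers. All vehicle mice were under 16 units and all LPS mice far above. LPS raised Zbp1 at least 22.9-fold in MCAD-/- livers (log2 difference 5.35 ± 0.18 SE, adjusted p = 4.89e-15) and at least 19.6-fold in wild type livers (4.82 ± 0.18, adjusted p = 2.32e-14). The responses differed by 0.52 ± 0.25 on the log2 scale, which did not pass the threshold (SE; adjusted p = 0.254).

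The dimmer Zbp1 probe set had 92.9, 117, 115, 105 and 217 units in MCAD-/- LPS livers and 189.6, 176, 256, 196 and 157 units in wild type LPS livers. It had 5.58, 5.21, 5.14, 6.50 and 4.74 units in MCAD-/- vehicle livers and 8.81, 5.92, 4.59, 5.35 and 6.16 units in wild type vehicle livers. Both probe sets rose with LPS, the dimmer one by at least 7.70-fold in MCAD-/- and at least 12.03-fold in wild type livers. They disagreed by genotype with LPS. The brighter set was 0.22 higher in MCAD-/- livers (95% interval -0.15 to 0.59, adjusted p = 0.408), and the dimmer set was lower there, at -0.64 (adjusted p = 0.0318, each probe set tested on its own; exact two-sided permutation p = 0.0397). In the dimmer set 4 of the 5 MCAD-/- LPS mice lay below all wild type LPS mice, and mouse 5 lay above 4 of them. No direction by genotype is drawn for Zbp1 with LPS. With vehicle the genotype difference was -0.30 on the brighter set (adjusted p = 0.284), with all mice under 16 units.

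**Figure D3:**
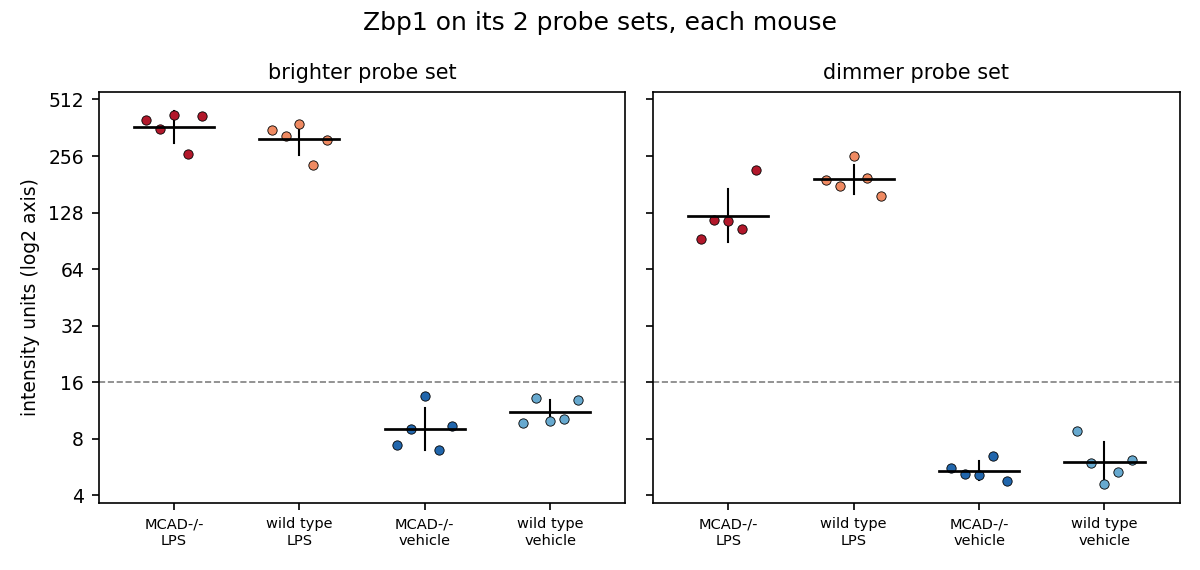
Zbp1 signal of every mouse on its brighter and its dimmer probe set, in intensity units on a log2 axis; lines are means and bars 1 SD of log2 values. Both sets lie far above the dashed 16 unit line in the LPS groups only, and MCAD-/- LPS livers are the higher of the LPS groups by mean on the brighter set and the lower on the dimmer.

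Ripk3, the kinase of necroptosis, stayed under 16 units in all 20 mice and was not tested. Its signal was 8.66, 7.62, 9.04, 7.63 and 5.24 units in MCAD-/- LPS livers and 8.76, 11.2, 9.16, 8.96 and 9.59 units in wild type LPS livers. It was 5.01, 5.24, 5.30, 5.01 and 5.31 units in MCAD-/- vehicle livers and 4.66, 4.997, 5.33, 3.97 and 5.12 units in wild type vehicle livers. In wild type livers the LPS and vehicle groups did not overlap, and in MCAD-/- livers mouse 5 of the LPS group fell within the vehicle range. Without the filter, limma's log2 difference for LPS was 0.54 in MCAD-/- (adjusted p = 0.00116) and 0.99 in wild type livers (adjusted p = 1.20e-06), and exact two-sided permutation tests gave p = 0.0317 and p = 0.00794, the second being the smallest that 5 against 5 mice allow. With LPS the MCAD-/- livers were -0.34 relative to wild type (95% interval -0.59 to -0.086, adjusted p = 0.0858 without the filter), and the difference of responses was -0.45 (adjusted p = 0.206). At such dim signals no fold is given.

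Mlkl, the executor of necroptosis that breaks the plasma membrane, rose with LPS in both genotypes. Its signal was 176, 211, 255, 148 and 281 units in MCAD-/- LPS livers, against 7.87, 9.55, 10.7, 9.52 and 14.7 units in MCAD-/- vehicle livers. It was 182, 207, 225, 208 and 158 units in wild type LPS livers, against 14.7, 10.3, 8.07, 8.44 and 9.17 units in wild type vehicle livers. No vehicle mouse reached 16 units, and the lowest LPS mouse was at 148 units. The increase was at least 13.02-fold in MCAD-/- livers (log2 difference 4.35 ± 0.19 SE, adjusted p = 3.87e-13) and at least 12.2-fold in wild type livers (4.30 ± 0.19, adjusted p = 4.47e-13). The genotype difference with LPS was 0.10 (95% interval -0.30 to 0.50, adjusted p = 0.769), and the difference of responses was 0.048 (95% interval -0.52 to 0.62).

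Neutrophil markers rose with LPS beside Gsdmd, Zbp1 and Mlkl. Of the 10 on the array 4 passed the filter, and all 4 (S100a8, S100a9, Ngp and Mmp8) were higher with LPS in both genotypes. The vehicle means of all 4 were under 16 units in both genotypes. They passed the filter mainly through the LPS mice in which they were high, so these calls are no separate evidence. The summed neutrophil signal was 2761 to 3288 units in MCAD-/- LPS, 1887 to 3984 in wild type LPS, 51.3 to 228 in MCAD-/- vehicle and 56.8 to 128 in wild type vehicle livers. The other neutrophil markers on the array (Mpo, Elane, Camp, Csf3r, Cxcr2 and Mmp9) were below 16 units in every mouse. Monocyte and dendritic cell markers were called higher with LPS for 4 of 4 in MCAD-/- and 3 of 4 in wild type livers. Of all tested genes 38.1 and 40 percent were called higher in these comparisons. Among the monocyte markers, Chil3 and F13a1 had vehicle means under 16 units in both genotypes, so the same limit holds for them. The 10 T and NK lymphocyte and 7 B lymphocyte markers on the array all failed the filter. The part of leukocytes in the LPS differences of the 9 genes was not tested.

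Genes of the surrounding pathways were read from 6 lists. For each list the count called, the median log2 difference and the same median over all 8774 tested genes are given, the last being 0.14 for LPS in MCAD-/- livers, 0.18 for LPS in wild type livers, 0.037 by genotype with vehicle and -0.027 by genotype with LPS. The share called of all tested genes was 65.7 percent for LPS in MCAD-/- livers and 64 percent in wild type livers. By genotype it was 16.2 percent with vehicle and 20.6 percent with LPS. With so large a share called for LPS, the LPS count of a list is no result about that list. Group signals are geometric means of 5 mice in intensity units. Medians with values under 16 units set at 16 are given beside those of the LPS comparisons, since dim genes have only a bound. Of the 59 tested list genes 8 (Naip2, Pycard, Il1b, Il33, Il1r2, Apaf1, Bak1 and Tnfaip3) exceeded 16 units only in mice given LPS and 1 (Bmf) only in mice given vehicle. Each passed the filter through the group in which it was high, so its call for LPS is no separate evidence. The first 8 are among the 27 list genes that rose with LPS in MCAD-/- livers and the 31 in wild type livers. For Il1rn 4 of 5 mice of each vehicle group were under 16 units. For Tlr3 and Fadd 5 MCAD-/- and 3 wild type vehicle mice were. These genes passed the filter mainly through the LPS mice in which they were high, so the same limit holds for their LPS calls. Folds written as at least a value have any mouse of the dimmer group under 16 units set at 16. Over the 6 lists 15 genes are not analysed here.

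**Figure D4:**
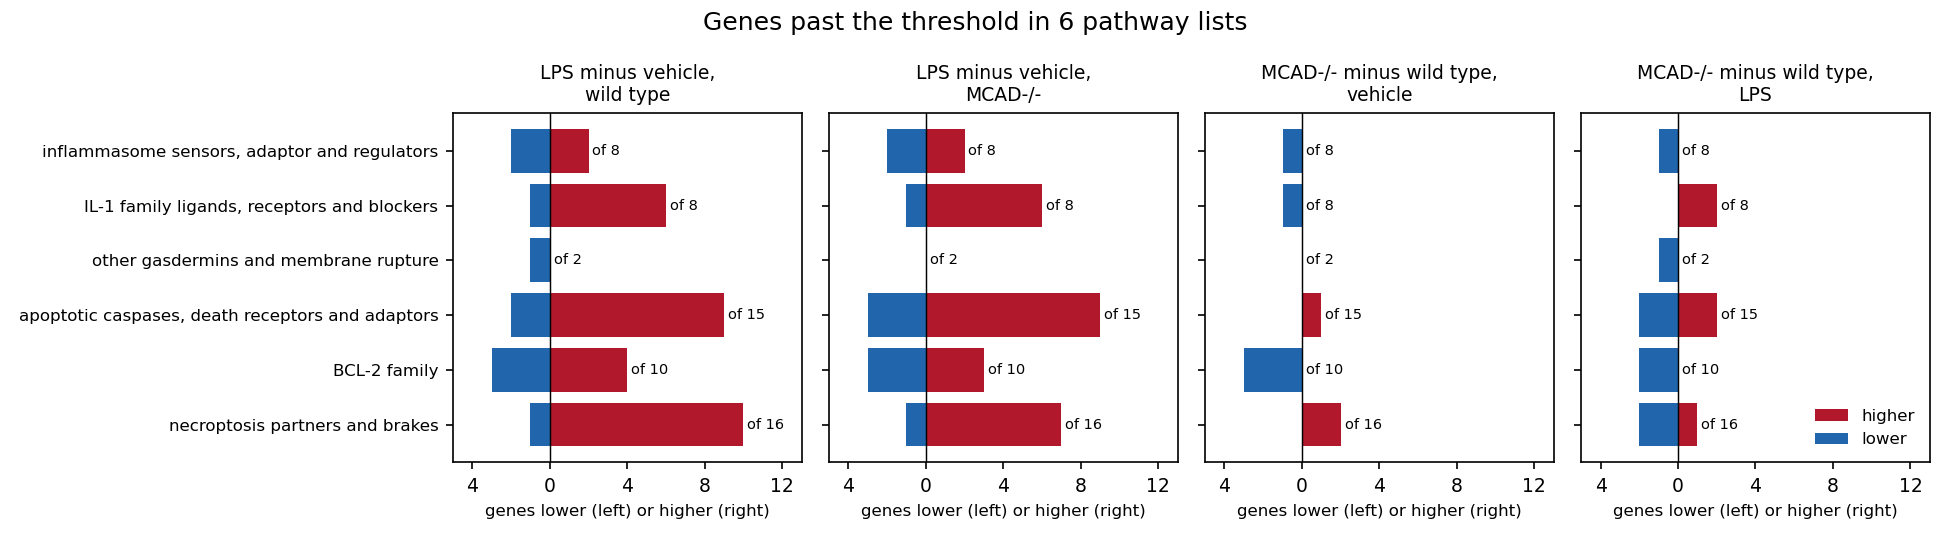
Number of tested genes of each pathway list with an adjusted p under 0.05, higher (red, to the right) or lower (blue, to the left), for LPS against vehicle in each genotype and for MCAD-/- against wild type under each injection; the label gives the genes tested. The apoptosis, necroptosis and IL-1 lists have their longest bars to the right for LPS, and by genotype no list has more than 3 genes in one direction. Of all tested genes, 65.7 percent were called for LPS in MCAD-/- and 64 percent in wild type livers. By genotype 16.2 percent were called with vehicle and 20.6 percent with LPS.

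Among inflammasome sensors, adaptors and regulators, 8 of 15 on the array were tested. LPS changed 4 of 8 in each genotype: 2 fell, and 2 rose, Pycard and Naip2, both over 16 units only with LPS. The median was 0.23 in MCAD-/- and 0.033 in wild type livers (0.063 and -0.0014 with dim values set at 16). Pycard, the ASC adaptor that links sensors to caspase-1, was 17.7 units in MCAD-/- LPS, 18.7 in wild type LPS, 4.99 in MCAD-/- vehicle and 4.67 in wild type vehicle livers. That was at least 1.10-fold higher with LPS in MCAD-/- and at least 1.17-fold higher in wild type livers (adjusted p = 1.15e-07 and 3.66e-08). Naip2, which senses bacterial type III secretion rods, was 12.6 units in MCAD-/- LPS, 25.1 in wild type LPS, 7.40 in MCAD-/- vehicle and 10.7 in wild type vehicle livers. It rose at least 1.57-fold with LPS in wild type livers (adjusted p = 0.000610). In MCAD-/- livers it was also called (log2 difference 0.77 ± 0.28 SE, adjusted p = 0.0188), with both groups' means under 16 units, a call lost without mouse 5 of the vehicle group or mouse 1 or 5 of the LPS group (adjusted p = 0.0510 to 0.0582). With LPS it was at least 1.55-fold lower in MCAD-/- than in wild type livers (log2 difference -0.99 ± 0.28 SE, adjusted p = 0.0146), with 3 of 5 MCAD-/- LPS mice under 16 units.

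Nlrp6, a sensor best known from intestine and liver, and Txnip, a thioredoxin-binding protein that can engage NLRP3, both fell with LPS. Nlrp6 was 148 units in MCAD-/- LPS, 169.6 in wild type LPS, 317 in MCAD-/- vehicle and 289 in wild type vehicle livers, 2.15-fold lower with LPS in MCAD-/- and 1.70-fold lower in wild type livers (adjusted p = 3.46e-05 and 0.00130). Txnip was 134 units in MCAD-/- LPS, 166 in wild type LPS, 469 in MCAD-/- vehicle and 440.0 in wild type vehicle livers, 3.50-fold lower in MCAD-/- and 2.66-fold lower in wild type livers (adjusted p = 8.02e-06 and 0.000136). By genotype 1 of the 8 fell with vehicle, Nlrp12, and 1 with LPS, Naip2. Nlrp12, a sensor of the NLR family with inhibitory roles in inflammation, had 3.46, 383, 786, 653 and 4.72 units in MCAD-/- vehicle livers, against 1675, 1659, 1665, 1695 and 1677 units in wild type vehicle livers. It had 72.5, 893, 736, 108 and 132 units in MCAD-/- LPS livers, against 1814, 1744, 1523, 1773 and 1630.5 units in wild type LPS livers. Every MCAD-/- mouse lay below every wild type mouse, the wild type values were nearly alike, and the MCAD-/- values spread from 3.46 to 893 units. The vehicle difference was -4.39 ± 1.22 on the log2 scale (SE; adjusted p = 0.0175), and it was -3.26 (adjusted p = 0.0548) without mouse 1 of the MCAD-/- vehicle group. With all mice, and the 2 dim MCAD-/- vehicle mice set at 16 units, Nlrp12 was at least 12.1-fold lower in MCAD-/- vehicle livers. The genotype difference with LPS was -2.86 ± 1.22 (adjusted p = 0.105). As for Casp4, the Acadm genotype and strain-derived segments cannot be told apart in these differences of Nlrp12.

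Of 8 tested ligands, receptors and blockers of the IL-1 family, 6 rose and 1 fell with LPS in each genotype, with medians of 2.02 in MCAD-/- and 2.47 in wild type livers (1.63 and 1.33 with dim values set at 16). Il1rn, the secreted receptor antagonist, was 1112 units in MCAD-/- LPS, 296 in wild type LPS, 13.8 in MCAD-/- vehicle and 11.8 in wild type vehicle livers. In each vehicle group 4 of 5 mice were under 16 units. LPS raised it at least 58.4-fold in MCAD-/- and at least 17.1-fold in wild type livers (adjusted p = 2.07e-11 and 1.94e-09), and with LPS it was 3.75-fold higher in MCAD-/- livers without overlap (log2 difference 1.91 ± 0.37 SE, adjusted p = 0.000934). Il33, an alarmin released from damaged cells, was 917 units in MCAD-/- LPS, 195 in wild type LPS, 8.99 in MCAD-/- vehicle and 7.02 in wild type vehicle livers. It rose at least 57.3-fold in MCAD-/- and at least 12.2-fold in wild type livers (adjusted p = 2.30e-11 and 3.09e-09), and with LPS it was 4.71-fold higher in MCAD-/- livers, with overlap (adjusted p = 0.000372). The difference of LPS responses was 1.68 for Il1rn (adjusted p = 0.0705) and 1.88 for Il33 (adjusted p = 0.0574), both resting on vehicle values mostly under 16 units. On the dimmer Il1rn probe sets, each tested on its own, it was 1.97 and 1.51 and passed the threshold (limma adjusted p = 0.0401 for each). The brightest Il1rn set was at adjusted p = 0.0896 by the same test.

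Il18bp, the soluble protein that neutralizes interleukin-18, moved opposite to Il18 with LPS. It was 65.1 units in MCAD-/- LPS, 101 in wild type LPS, 22.8 in MCAD-/- vehicle and 15.01 in wild type vehicle livers, at least 2.73-fold higher with LPS in MCAD-/- livers (log2 difference 1.51 ± 0.26 SE, adjusted p = 4.93e-05) and at least 5.95-fold higher in wild type livers (log2 difference 2.75 ± 0.26 SE, adjusted p = 2.83e-08). The difference of those responses was -1.24 ± 0.37 (adjusted p = 0.0628), short of the threshold. Il1r2, the decoy receptor, was 55.7 units in MCAD-/- LPS, 63.2 in wild type LPS, 5.22 in MCAD-/- vehicle and 6.08 in wild type vehicle livers, at least 3.48-fold higher with LPS in MCAD-/- and at least 3.95-fold higher in wild type livers (adjusted p = 1.81e-12 and 2.50e-12). Il1r1, the signalling receptor, was 724 units in MCAD-/- LPS, 452 in wild type LPS, 151 in MCAD-/- vehicle and 315 in wild type vehicle livers. LPS raised it 4.80-fold in MCAD-/- livers (adjusted p = 3.88e-07), with vehicle it was 2.09-fold lower in MCAD-/- than in wild type livers (adjusted p = 0.00890), and its LPS response was larger in MCAD-/- livers by 1.74 ± 0.37 on the log2 scale (SE; adjusted p = 0.0115). In wild type livers Il1r1 was not called for LPS (log2 difference 0.52 ± 0.27 SE, adjusted p = 0.0928). Il1b, the other cytokine matured by caspase-1, was named after its values were seen. It was 18.04 units in MCAD-/- LPS, 23.3 in wild type LPS, 5.25 in MCAD-/- vehicle and 5.11 in wild type vehicle livers, with every vehicle mouse under 16 units. That was at least 1.13-fold higher with LPS in MCAD-/- and at least 1.46-fold higher in wild type livers (adjusted p = 1.01e-06 and 7.14e-08).

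**Figure D5:**
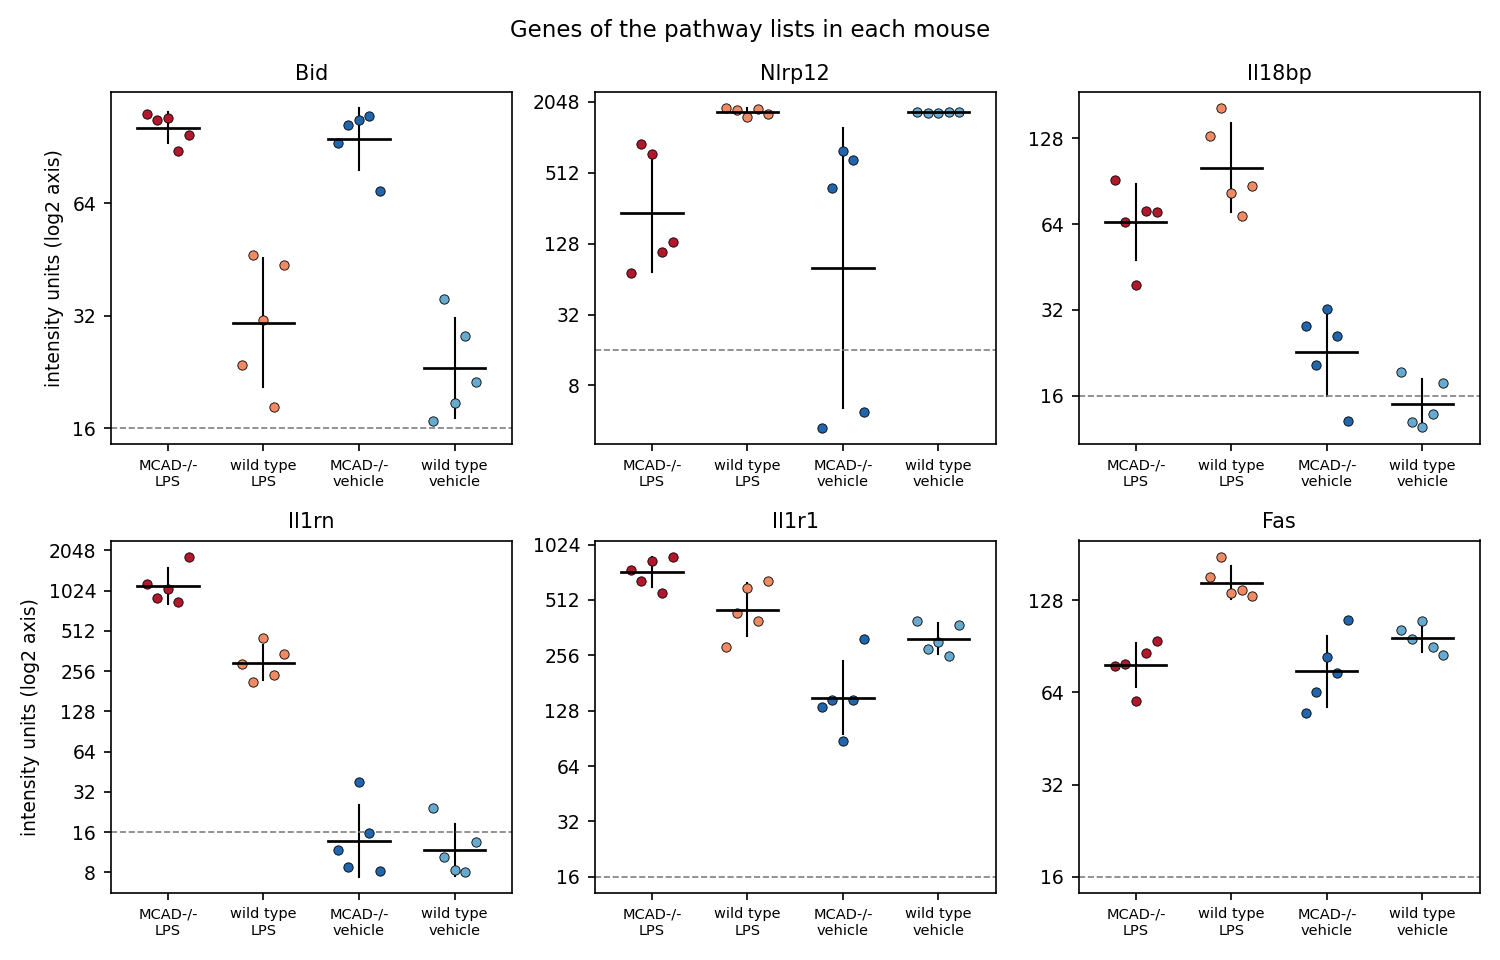
Signal of 6 list genes in every mouse, in intensity units on a log2 axis; lines are means, bars are 1 SD of the log2 values and the dashed line marks 16 units. Bid is higher and Nlrp12 lower in MCAD-/- livers under both injections, Il18bp, Il1rn and Il1r1 are higher with LPS in mean in both genotypes, and Fas is lower in MCAD-/- LPS than in wild type LPS livers.

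Of the other gasdermins and the membrane rupture protein Ninj1, only 2 of 5 on the array were tested, Gsdme and Ninj1. Gsdme, another pore-forming gasdermin, was 134 units in MCAD-/- LPS, 112 in wild type LPS, 157 in MCAD-/- vehicle and 198 in wild type vehicle livers. It was 1.76-fold lower with LPS in wild type livers (log2 difference -0.82 ± 0.34 SE, adjusted p = 0.0392) and was not called in MCAD-/- livers (log2 difference -0.23 ± 0.34 SE, adjusted p = 0.558). The wild type call was lost without any one of wild type vehicle mice 2, 4 and 5 or wild type LPS mice 3, 4 and 5 (adjusted p = 0.0503 to 0.130), and without wild type LPS mouse 4, an array of high actin ratio, the difference was -0.40. With the mean of all Gsdme probe sets the difference was -0.044 (adjusted p = 0.893). The call was also lost without the filter, with arrays centred on their median and with only the compared groups fitted (adjusted p = 0.0518 to 0.0853). Ninj1, which ruptures the membrane after pyroptosis, was 1082 units in MCAD-/- LPS, 1369 in wild type LPS, 1221 in MCAD-/- vehicle and 1271 in wild type vehicle livers, 1.27-fold lower in MCAD-/- than in wild type livers with LPS (adjusted p = 0.0201, and 0.0621 without mouse 3 of the MCAD-/- LPS group).

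Of 15 tested apoptotic caspases, death receptors and adaptors, 9 rose and 3 fell with LPS in MCAD-/- livers and 9 rose and 2 fell in wild type livers, with medians of 0.58 and 0.78 (0.58 and 0.77 with dim values set at 16). Apaf1, the scaffold of the apoptosome, was 63.4 units in MCAD-/- LPS, 34.1 in wild type LPS, 8.06 in MCAD-/- vehicle and 7.38 in wild type vehicle livers, at least 3.96-fold higher with LPS in MCAD-/- and at least 2.13-fold higher in wild type livers (adjusted p = 5.14e-08 and 2.74e-06). Tnfrsf1a, the main TNF receptor of hepatocytes, was 636 units in MCAD-/- LPS, 618 in wild type LPS, 228 in MCAD-/- vehicle and 239.8 in wild type vehicle livers, 2.79-fold higher in MCAD-/- and 2.58-fold higher in wild type livers (adjusted p = 2.54e-06 and 7.34e-06). Its adaptor Traf2 was 39.5 units in wild type LPS against 16.9 units in wild type vehicle livers (log2 difference 1.23 ± 0.19 SE, adjusted p = 1.03e-05). In MCAD-/- livers Traf2 rose with LPS too (log2 difference 1.10 ± 0.19 SE, adjusted p = 3.45e-05). The ubiquitin ligases Birc2 and Birc3, which restrain death signalling from the TNF receptor, rose 2.52-fold and 2.56-fold in MCAD-/- livers (adjusted p = 1.90e-07 and 2.14e-05), Birc2 to 385 units in MCAD-/- LPS against 153 units in MCAD-/- vehicle livers and Birc3 to 135 against 52.6 units. In wild type livers Birc2 rose 1.76-fold and Birc3 1.95-fold with LPS (adjusted p = 8.25e-05 and 0.000738). Casp6, an effector caspase, was 61.7 units in MCAD-/- LPS, 65.96 in wild type LPS, 118 in MCAD-/- vehicle and 141 in wild type vehicle livers, 2.14-fold lower with LPS in wild type livers (adjusted p = 1.43e-05). In MCAD-/- livers Casp6 was 1.92-fold lower with LPS (adjusted p = 7.48e-05).

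By genotype 1 of the 15 rose with vehicle, and 2 rose and 2 fell with LPS. Bid, which caspase-8 cuts to carry the death signal to mitochondria, had 111, 107, 108, 88.2 and 97.8 units in MCAD-/- LPS livers, against 23.6, 46.6, 31.3, 18.2 and 43.6 units in wild type LPS livers. It had 92.7, 104, 107, 109.8 and 69.2 units in MCAD-/- vehicle livers, against 16.7, 35.5, 18.7, 28.2 and 21.3 units in wild type vehicle livers. Every MCAD-/- mouse lay above every wild type mouse, by 4.11-fold with vehicle (log2 difference 2.04 ± 0.23 SE, adjusted p = 2.52e-06) and 3.33-fold with LPS (log2 difference 1.73 ± 0.23 SE, adjusted p = 1.98e-05). The other probe sets of Bid were below the filter, and for Bid too the Acadm genotype and strain-derived segments cannot be told apart. Fas, the death receptor upstream of caspase-8, was 78.6 units in MCAD-/- LPS, 146 in wild type LPS, 75.1 in MCAD-/- vehicle and 95.99 in wild type vehicle livers, and with LPS it was 1.86-fold lower in MCAD-/- livers without overlap (log2 difference -0.89 ± 0.16 SE, adjusted p = 0.000422). Fadd, the adaptor between Fas and caspase-8, was 16.1 units in MCAD-/- LPS, 29.2 in wild type LPS, 11.5 in MCAD-/- vehicle and 15.1 in wild type vehicle livers, at least 1.62-fold lower in MCAD-/- livers with LPS, also without overlap (adjusted p = 0.00291). Apaf1 was 1.86-fold higher in MCAD-/- livers with LPS (adjusted p = 0.0391), a call lost without any one of mice 1, 2, 4 and 5 of the wild type LPS group or mice 3 and 5 of the MCAD-/- LPS group (adjusted p = 0.0616 to 0.115).

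Of 10 tested BCL-2 family genes, 3 rose and 3 fell with LPS in MCAD-/- livers and 4 rose and 3 fell in wild type livers, with medians of -0.11 and 0.022 (-0.055 and 0.10 with dim values set at 16). The members that fell most encode BH3-only initiators of apoptosis. Bcl2l11, encoding BIM, was 29.3 units in MCAD-/- LPS, 16.6 in wild type LPS, 163 in MCAD-/- vehicle and 93.7 in wild type vehicle livers, at least 5.35-fold lower with LPS in MCAD-/- and at least 4.82-fold lower in wild type livers (adjusted p = 3.80e-06 and 3.61e-06). Bmf, of the same class, was 6.77 units in MCAD-/- LPS, 8.46 in wild type LPS, 20.7 in MCAD-/- vehicle and 45.8 in wild type vehicle livers, at least 1.29-fold lower in MCAD-/- and at least 2.86-fold lower in wild type livers (adjusted p = 4.85e-05 and 3.35e-07). Bak1, a mitochondrial pore former, was 29.4 units in MCAD-/- LPS, 27.6 in wild type LPS, 11.6 in MCAD-/- vehicle and 11.3 in wild type vehicle livers, at least 1.84-fold and at least 1.73-fold higher (adjusted p = 7.48e-05 and 0.000115). The survival gene Bcl2l1 rose 1.91-fold in MCAD-/- livers, to 80.5 units in MCAD-/- LPS against 42.05 units in MCAD-/- vehicle livers (adjusted p = 0.000303). In wild type livers Bcl2l1 rose 1.83-fold (adjusted p = 0.000614). Bad, another BH3-only gene, rose 1.96-fold in wild type livers, to 70.2 units in wild type LPS against 35.7 units in wild type vehicle livers (adjusted p = 0.000732). Bad was not called for LPS in MCAD-/- livers (log2 difference 0.36 ± 0.22 SE, adjusted p = 0.158).

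By genotype 3 BCL-2 family genes fell with vehicle and 2 with LPS, and none rose. Bik was 8.45 units in MCAD-/- LPS, 19.02 in wild type LPS, 9.08 in MCAD-/- vehicle and 20.1 in wild type vehicle livers, at least 1.25-fold lower in MCAD-/- livers with vehicle and at least 1.19-fold lower with LPS (adjusted p = 0.00606 and 0.00422). For Bik every MCAD-/- mouse was under the floor of the filter. Bik passed the filter only through wild type mice, in which it was high, so its calls by genotype are no separate evidence. Bok was 14.9 units in MCAD-/- LPS, 24.996 in wild type LPS, 26.3 in MCAD-/- vehicle and 39.8 in wild type vehicle livers, 1.51-fold lower with vehicle and at least 1.46-fold lower with LPS (adjusted p = 0.0251 and 0.00520). The Bok call with vehicle was lost without mouse 4 or 5 of the wild type vehicle group or mouse 5 of the MCAD-/- vehicle group (adjusted p = 0.0515 to 0.0671). Bmf was at least 2.01-fold lower in MCAD-/- livers with vehicle (log2 difference -1.15 ± 0.28 SE, adjusted p = 0.00779).

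Among 16 tested partners and brakes of necroptosis, 7 rose and 1 fell with LPS in MCAD-/- livers and 10 rose and 1 fell in wild type livers, with medians of 0.36 and 0.46 (0.34 and 0.46 with dim values set at 16). Tnfaip3, encoding the ubiquitin-editing enzyme A20, was 64.8 units in MCAD-/- LPS, 41.7 in wild type LPS, 6.43 in MCAD-/- vehicle and 4.58 in wild type vehicle livers. It was at least 4.05-fold higher with LPS in MCAD-/- and at least 2.61-fold higher in wild type livers (adjusted p = 2.43e-13 and 4.88e-13), and with LPS 1.55-fold higher in MCAD-/- livers without overlap (adjusted p = 0.00362). Tlr3, the endosomal double-stranded RNA receptor that can engage RIPK3, was 32.3 units in MCAD-/- LPS, 33.1 in wild type LPS, 11.3 in MCAD-/- vehicle and 15.9 in wild type vehicle livers, at least 2.02-fold higher in MCAD-/- and at least 1.79-fold higher in wild type livers (adjusted p = 1.96e-06 and 0.000127). Adar, the RNA editor that limits ZBP1 activation, was 104 units in MCAD-/- LPS, 109.6 in wild type LPS, 47.3 in MCAD-/- vehicle and 56 in wild type vehicle livers, 2.19-fold and 1.96-fold higher (adjusted p = 0.000215 and 0.000976). Tbk1, a kinase that restrains RIPK1, was 818 units in MCAD-/- LPS, 786 in wild type LPS, 388 in MCAD-/- vehicle and 445 in wild type vehicle livers, 2.11-fold and 1.76-fold higher (adjusted p = 2.52e-09 and 1.28e-07).

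By genotype 2 of the 16 rose with vehicle, and 1 rose and 2 fell with LPS. Tnfaip3 was called with vehicle at values all under 16 units (log2 difference 0.49 ± 0.14 SE, adjusted p = 0.0245), a call lost without mouse 4 of the wild type vehicle group or mouse 2, 4 or 5 of the MCAD-/- vehicle group (adjusted p = 0.0504 to 0.0798). After 16 was added to each value, this Tnfaip3 difference was 0.13 with adjusted p = 0.376. Mapkapk2, a kinase that phosphorylates RIPK1, was 90.9 units in MCAD-/- vehicle against 69.7 units in wild type vehicle livers (log2 difference 0.38 ± 0.12 SE, adjusted p = 0.0378). That call was lost without any one of mice 1, 2, 4 and 5 of the wild type vehicle group or mice 1, 3 and 4 of the MCAD-/- vehicle group (adjusted p = 0.0509 to 0.116). The linear ubiquitin genes Otulin and Ikbkg were lower in MCAD-/- livers with LPS. Otulin was 137 units in MCAD-/- LPS against 208 units in wild type LPS livers (log2 difference -0.61 ± 0.15 SE, adjusted p = 0.00722). Ikbkg was 163 against 235 units in the same groups (log2 difference -0.53 ± 0.13 SE, adjusted p = 0.00728). Of its other 4 probe sets that passed the filter, 1 was called lower too (adjusted p = 0.0149) and 3 had negative differences short of the threshold (adjusted p = 0.0601 to 0.237).

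For each of the 9 genes the 3 tested genes of most similar pattern were named, by the root mean square difference of the 4 centred group means on the log2 scale (in parentheses). The measure rests on 4 groups, so genes with small group differences have small distances. For Gsdmd they were Ifit3 (0.057), Psmb8 (0.0926), Slc11a2 (0.119), the first an interferon-induced gene and the second an immunoproteasome subunit. For Zbp1 they were Trat1 (0.148), Gbp6 (0.243), Synpo (0.257), and for Mlkl Slc39a10 (0.158), Tubb6 (0.158), Cdkn1a (0.198). Cdkn1a encodes the cell cycle inhibitor p21, and Gbp6 an interferon-induced GTPase. For Casp4 they were Dnajc12 (0.226), Slfn5 (0.247), Lmo4 (0.256), the nearest of which was farther than the nearest of any other of the 9 genes. Dnajc12 was 571 units in MCAD-/- LPS, 200.4 in wild type LPS, 131 in MCAD-/- vehicle and 77.7 in wild type vehicle livers. For Il18 they were Adra1b (0.0585), Tarsl2 (0.0766), Fdx1 (0.093). Fdx1, the electron donor of mitochondrial cytochrome P450 enzymes, was 712 units in MCAD-/- LPS, 1082 in wild type LPS, 2078 in MCAD-/- vehicle and 2867 in wild type vehicle livers. For Casp8 they were Pih1d1 (0.0202), Smim19 (0.0253), St7 (0.0334). For the dim genes they were Myl12a (0.0134), Trappc4 (0.0149), Noc4l (0.0215) for Casp1, Phf12 (0.00647), Mrps2 (0.00824), Nrbp1 (0.00839) for Nlrp3 and Phf5a (0.00458), Krba1 (0.0162), Strn4 (0.0178) for Ripk3.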

How the data were processed

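Liver RNA of 20 mice was hybridized to Affymetrix arrays, 1 array a mouse. The deposited values are linear intensity units, normalized by the authors with GCRMA per the submitters' processing notes (version not given in the sources used here), and values under 16 units were treated as a bound rather than a level. Of 45101 probe sets, 34945 had 1 gene symbol, 932 several and 9160 none listed. The brightest probe set by mean log2 stood for each of 18193 genes, and genes over 16 units on at least 5 arrays were tested (8774). Values were taken to log2 and fitted with limma 3.58.1 in R 4.3.3, all 4 groups in 1 model without covariates, two-sided, with Benjamini-Hochberg adjustment over all tested genes and a threshold of 0.05. Where mice of the dimmer group were under 16 units, folds are lower bounds, from the mean of the brighter group over a dim group whose values under 16 are set at 16, on the log2 scale. Genes below the filter were read from a limma fit without it and from exact permutation tests. Fold changes and errors are of log2 values. The named list genes are up to 4 per list and comparison, those called with the largest differences, and the 3 genes nearest each member in pattern. The members and lists were chosen with earlier results of these data known. The scripts were tested on simulated data. Alternatives covered the filter, an added constant, probe set choice, scaling, array weights, the samples fitted, a replicate block and leaving out each mouse; leaving out both arrays of high actin ratio was added after seeing the data. Promoter sequences are RefSeq's (GRCm38.p6). The number of arrays and the dim signals limit the precision. No proteins were measured.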

Additional observations from a re-analysis of the deposited data

Results flagged for a closer look

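The LPS response differed by genotype for Casp4, by 1.14 on the log2 scale (limma adjusted p = 0.00586), and for Il1r1, by 1.74 (adjusted p = 0.0115). In both the response was larger in MCAD-/- livers. For Casp4, 3 of the 4 groups lay under 16 units in every mouse, so the difference of responses rests on values of which most are bounds. Casp4 passed the filter only through MCAD-/- LPS livers, in which it was high. For Il1r1, MCAD-/- livers were lower than wild type with vehicle and not called by genotype with LPS (log2 difference 0.68 ± 0.27 SE, adjusted p = 0.0753).

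Of 176 gene and group combinations, over the 9 genes and the named list genes, 7 had a mouse far from the other 4 of its group, and about 1 in 20 would be so by chance. None was among the 9 genes. Txnip was 323 units, with the nearest mouse of its group at 145 and the farthest at 137, in mouse 5 of the wild type LPS group. Bad was 144 units, with the nearest mouse of its group at 68.8 and the farthest at 52.4, in mouse 4 of the wild type LPS group, the array with the highest actin ratio. Birc2 was 550.0 units, with the nearest mouse of its group at 374 and the farthest at 327, and Birc3 was 219.7 units, with the nearest mouse of its group at 125 and the farthest at 112, both in mouse 5 of the MCAD-/- LPS group. Traf2 was 13.7 units, with the nearest mouse of its group at 19.9 and the farthest at 22.7, in mouse 2 of the MCAD-/- vehicle group. Tnfaip3 was 4.75 units, with the nearest mouse of its group at 6.42 and the farthest at 7.19, in mouse 1 of that group. Bok was 35.8 units, with the nearest mouse of its group at 40.2 and the farthest at 41.4, in mouse 1 of the wild type vehicle group.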

How the results depend on the processing

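Of the 9 genes' differences under each alternative, 5 lost a call, 1 gained one and 1 reversed and was called. The other 1277 kept their side of the threshold, or, for the untested Casp1, Nlrp3 and Ripk3, moved by less than 1 SD. Uncalled differences among them could change sign, as the Zbp1 difference of responses did (0.52, and -0.49 on the dimmer probe set). The reversal was Zbp1 by genotype with LPS on its dimmer probe set (-0.64), and the gain was Zbp1 by genotype with vehicle under array weights (-0.50, adjusted p = 0.0100). The lost calls, of Casp4 by genotype with vehicle and of Il18 by genotype with LPS, stand in the report. Members called for LPS in wild type livers numbered 8 without the filter, against 5 of 6 with it, since Casp1, Nlrp3 and Ripk3 then entered. By genotype with vehicle 1 was called under a stricter filter of 64 units or with 16 added to each value, against 2. By genotype with LPS 1 was called under the stricter filter or with only the compared groups, against 2, and 1 to 2 with 1 mouse left out. The stricter filter drops Casp4, which left 0 members called for the interaction, against 1. With a replicate block, members called were 5, 5, 2, 2 and 1 in the 5 comparisons, as without it. Over 30 pairs of groups and numbers, same-numbered mice correlated at r = -0.12 to 0.28, median 0.018, with 7 pairs over 0.1. Whether the replicate numbers pair the mice was not tested. Centring or quantile normalization moved the median of all genes by at most 0.079 (log2). Of the named list genes' differences 1924 kept their call and 45 lost it, none reversing. Called sensors numbered 2 to 6 for LPS in MCAD-/- (reported 4), 2 to 6 for LPS in wild type (reported 4), 0 to 1 for genotype with vehicle (reported 1) and 0 to 2 for genotype with LPS (reported 1). Called IL-1 family genes numbered 1 to 2 for genotype with vehicle (reported 1), 2 to 4 for genotype with LPS (reported 2) and 1 to 4 for interaction (reported 1). Called gasdermins numbered 0 to 1 for LPS in MCAD-/- (reported 0), 0 to 1 for LPS in wild type (reported 1) and 0 to 1 for genotype with LPS (reported 1). Called apoptosis genes numbered 1 to 5 for genotype with vehicle (reported 1), 2 to 4 for genotype with LPS (reported 4) and 0 to 1 for interaction (reported 0). Called BCL-2 genes numbered 3 to 7 for LPS in MCAD-/- (reported 6), 3 to 8 for LPS in wild type (reported 7), 0 to 4 for genotype with vehicle (reported 3), 0 to 3 for genotype with LPS (reported 2) and 0 to 1 for interaction (reported 0). Called necroptosis partners numbered 0 to 4 for genotype with vehicle (reported 2) and 3 to 5 for genotype with LPS (reported 3). Signals under 16 units limit Nlrp3, Casp1 and Ripk3 throughout, Casp4 outside MCAD-/- LPS livers, and Mlkl and Zbp1 in vehicle livers.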
